A study of Homo sapiens with 6 samples.

Results

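The genes of the vascular endothelial growth factor (VEGF) system were followed in PC3 cells after siRNA against VEGF-C or against neuropilin-2. The 9 genes were 4 ligands (VEGFA, VEGFB, VEGFC and PGF), 3 receptor tyrosine kinases (FLT1, KDR and FLT4) and 2 co-receptors (NRP1 and NRP2). They were chosen by name, as the members of the family, and every probe set whose platform annotation named 1 of them and no other gene was taken. This gave 33 of the 54675 probe sets on the array, for 9 of 19775 named genes.

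VEGF ligands are secreted dimers that bring receptor tyrosine kinases together at the cell surface. VEGFA, VEGFB and PGF bind the receptor encoded by FLT1, VEGFA is the main ligand of the receptor encoded by KDR, and VEGFC is the main ligand of the receptor encoded by FLT4, which drives the growth of lymphatic vessels. Neuropilins have a short cytoplasmic tail and no kinase domain. They bind VEGF ligands and most class 3 semaphorins and join the receptor complexes. NRP2 has a preference for VEGF-C signalling and NRP1 for VEGF-A signalling. The receptors are known mainly from endothelial cells, whereas many carcinomas produce the ligands and neuropilins.

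PC3 is an established line from a bone metastasis of a human prostate carcinoma. All 6 arrays held total RNA of PC3 cells grown in RPMI medium with 10% serum and collected 72 h after transfection. The cells had received an siRNA pool against VEGF-C (2 arrays), an siRNA pool against NRP-2 (2 arrays) or scrambled siRNA (2 arrays). Per the labels, the NRP-2 pool came from Santa Cruz Biotechnology and the VEGF-C pool from Dharmacon, so target and supplier changed together, and with 1 pool for each target the effect of depletion cannot be told apart from that of the siRNA sequences. No label says whether both arrays of a group came from different cultures, so the spread behind the p-values may be technical alone.

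The values were log2 expression levels per probe set, with array medians of at most 3.07. All 7 epithelial markers had means above log2 11. Of 14 endothelial markers, 2 had a mean of at least log2 4, and the lowest was VWF, von Willebrand factor, at 1.99. PECAM1, the adhesion molecule CD31, was high, with a mean of 9.83, and ROBO4 averaged 4.80. PECAM1 stood at 9.17 and 9.35 with VEGF-C siRNA, at 9.29 and 10.93 with NRP-2 siRNA and at 9.39 and 10.83 with scrambled siRNA. The mean over the 14 was 3.21 and 3.26 with VEGF-C siRNA, at 3.23 and 3.36 with NRP-2 siRNA and 3.26 and 3.29 with scrambled siRNA. The mean of 29 G2 and mitosis genes was 11.13 and 10.39 with VEGF-C siRNA, at 10.97 and 9.93 with NRP-2 siRNA and 10.26 and 8.58 with scrambled siRNA, in the order of the array numbers. Of these genes, 29 of 29 had a positive difference from scrambled siRNA with each siRNA, 3 and 0 of them at an unadjusted p under 0.05 with VEGF-C and NRP-2 siRNA, where 6.95% and 6.43% of all genes were higher at that level. The mean differed within each group, most between the scrambled arrays, and its part in the results was not tested except as a covariate in an alternative fit.

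For tests of genes, the probe set with the highest mean stood for its gene, which was tested if that mean reached log2 4. By this rule 8 of the 9 genes entered the fit of 11131 genes, and FLT1 did not. Of the 33 probe sets, 20 had a mean below log2 4. A difference below is one of group means on the log2 scale with its standard error (SE), and a gene was called at a limma adjusted p under 0.05 over all genes tested. Values for a group are mean ± SD of 2 arrays (n = 2).

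The 2 genes aimed at by the siRNAs were the ones whose levels differed most among the 9. The sequences before their start sites, RefSeq entries on GRCh38.p14, are shown as a description of the 2 genes. Whether they bear on any level given here was not tested. Each line holds the 250 bases upstream of the start of the gene, 5′ to 3′ on the strand of the gene, with matches to GGGCGG on either strand in capitals. The VEGFC stretch lies at chr4:176792923-176793172 on the minus strand and the NRP2 stretch at chr2:205682251-205682500 on the plus strand.
VEGFC: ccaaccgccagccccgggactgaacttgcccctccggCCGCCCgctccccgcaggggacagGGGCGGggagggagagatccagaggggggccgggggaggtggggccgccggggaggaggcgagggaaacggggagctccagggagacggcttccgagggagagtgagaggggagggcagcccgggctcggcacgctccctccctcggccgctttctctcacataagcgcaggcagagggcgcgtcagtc
NRP2: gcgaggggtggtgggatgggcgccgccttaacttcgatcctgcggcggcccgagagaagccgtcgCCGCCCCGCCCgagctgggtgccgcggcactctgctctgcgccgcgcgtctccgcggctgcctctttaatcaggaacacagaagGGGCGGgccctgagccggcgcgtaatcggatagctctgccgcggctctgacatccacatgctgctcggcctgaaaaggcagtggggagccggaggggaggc
The letters GGGCGG, which transcription factors of the SP family bind, occurred 2 times in the VEGFC stretch and 3 times in that of NRP2, where 2 matches overlap. Of 35116 RefSeq promoters of this length, 42.6% held them. Neither stretch held TATAAA (10.7% of promoters) or ACGTG (18.5%), both searched on both strands. The GC content was 74.0% for VEGFC and 70.0% for NRP2. RefSeq entries were matched for 6 of the 9 genes.

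VEGFC was lower with the siRNA against it. Its only probe set, 209946_at, stood at 8.46 and 7.27 with VEGF-C siRNA, at 11.99 and 11.67 with NRP-2 siRNA and at 11.81 and 11.80 with scrambled siRNA. Both VEGF-C arrays lay below all 4 others, and the NRP-2 and scrambled arrays overlapped. In bulk RNA, fewer cells with the transcript and less transcript per cell cannot be told apart.

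The VEGFC level averaged 7.86 ± 0.84 with VEGF-C siRNA against 11.81 ± 0.01 with scrambled siRNA, a difference of -3.95 (SE 0.39). This was rank 3 of 11131 genes by p, with an unadjusted p of 9.4e-05 and a limma adjusted p of 0.204, so the gene was not called. The difference corresponds to a 15.4-fold lower value on the linear scale. The remaining VEGFC level was still well above log2 4. The 2 VEGF-C arrays differed by more than the 2 arrays of either other group. Without VEGF-C array 1 the difference was -4.54 and without VEGF-C array 2 it was -3.35. With NRP-2 siRNA VEGFC averaged 11.83 ± 0.23, a difference from scrambled siRNA of 0.02 (95% interval -0.95 to 0.99). Between NRP-2 and VEGF-C siRNA it differed by 3.97 (SE 0.39, limma adjusted p = 0.098).

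VEGFA, the main ligand of blood vessel growth and a target of hypoxia-inducible factors, was lower with NRP-2 siRNA. Its brightest probe set, 210512_s_at, stood at 12.60 and 12.52 with VEGF-C siRNA, at 11.68 and 12.24 with NRP-2 siRNA and at 12.50 and 12.40 with scrambled siRNA. Both NRP-2 arrays were below the 4 others, array 1 by far more than array 2. NRP-2 siRNA gave -0.49 (SE 0.21, unadjusted p = 0.0588, limma adjusted p = 0.388) against scrambled siRNA and -0.60 (SE 0.21, unadjusted p = 0.0307, limma adjusted p = 0.23) against VEGF-C siRNA. VEGF-C siRNA gave 0.11 (95% interval -0.41 to 0.62) against scrambled siRNA.

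All 4 VEGFA probe sets had means above log2 4, and the group mean of each was lower with NRP-2 siRNA than with either other siRNA. Against scrambled siRNA the other 3 differed by -0.31 (212171_x_at), -0.89 (210513_s_at) and -0.20 (211527_x_at). Against VEGF-C siRNA they differed by -0.48, -0.99 and -0.34 in the same order. Probe set 210513_s_at stood at 6.71 and 6.71 with VEGF-C siRNA, at 5.51 and 5.95 with NRP-2 siRNA and at 6.51 and 6.71 with scrambled siRNA. In 211527_x_at, with a mean of 4.88, the NRP-2 and scrambled arrays overlapped. This probe set and 212171_x_at are of the type that can cross-hybridise (suffix _x_at). Probe sets of 1 gene share the RNA of the arrays, so their number adds no replication. The VEGFA difference was larger on NRP-2 array 1 than on array 2: against scrambled siRNA it was -0.21 without that array and -0.77 without NRP-2 array 2. With the G2/mitosis mean of each array as a covariate it was -0.41.

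VEGFB and PGF, the ligands that bind FLT1 and not KDR, differed little. VEGFB, which acts mainly in the heart and in fatty acid uptake, ranged from 4.53 to 4.68 over the 6 arrays in its only probe set. PGF, placental growth factor, stood at 8.72 and 8.89 with VEGF-C siRNA, at 8.87 and 9.13 with NRP-2 siRNA and 8.76 and 8.96 with scrambled siRNA in 215179_x_at. Array 2 was the higher one in each group, and all 3 groups overlapped. Its 95% intervals against scrambled siRNA were -0.45 to 0.34 with VEGF-C siRNA and -0.25 to 0.53 with NRP-2 siRNA. The second PGF probe set, 209652_s_at, stood between 2.53 and 2.62 on all arrays, so the PGF level rests on 1 probe set of the type that can cross-hybridise (suffix _x_at).

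**Figure D1:**
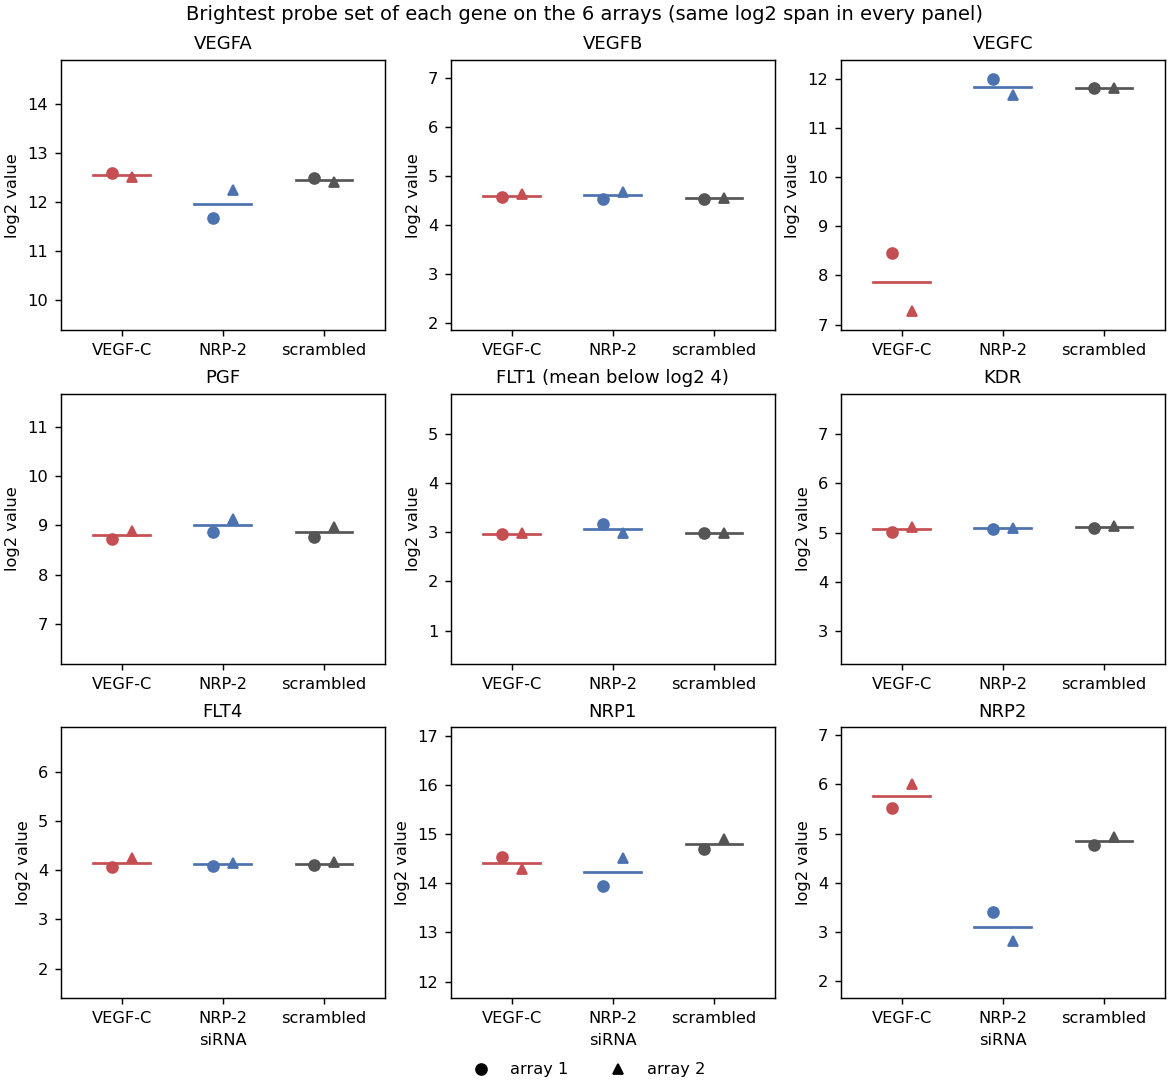
Log2 value (vertical axis) of the brightest probe set of each of the 9 genes on the 2 arrays with VEGF-C siRNA, the 2 with NRP-2 siRNA and the 2 with scrambled siRNA; circles are array 1, triangles array 2 and bars group means, and all panels span the same log2 range. VEGFC is set apart in the VEGF-C arrays (8.46 and 7.27), NRP2 is highest there (5.51 and 6.01) and lowest in the NRP-2 arrays (3.41 and 2.81), and the receptor kinases are flat.

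The receptor kinases differed little between the groups, and FLT1 and FLT4 were low in all of them. FLT1, which binds VEGFA with high affinity and also exists as a secreted decoy, had 6 probe sets, all with means below log2 4, and their values on the 6 arrays ran from 2.36 to 3.17. It was therefore not tested at the gene level. KDR, the main signalling receptor for VEGFA, stood at 5.02 and 5.12 with VEGF-C siRNA, at 5.08 and 5.09 with NRP-2 siRNA and 5.09 and 5.13 with scrambled siRNA. These 6 KDR values spanned 0.11. FLT4, the VEGF-C receptor of lymphatic endothelium, stood at 4.07 and 4.24 with VEGF-C siRNA, at 4.09 and 4.15 with NRP-2 siRNA and at 4.11 and 4.16 with scrambled siRNA in 210316_at. All 3 FLT4 groups overlapped, and its other 2 probe sets stayed between 1.96 and 2.07.

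Differences of KDR and FLT4 against scrambled siRNA lay between -0.04 and 0.02, with 95% intervals within -0.33 and 0.33. Without detection calls, neither presence nor absence of the receptor transcripts is stated.

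NRP1 was lower in both siRNA groups than with scrambled siRNA. Its brightest probe set, 212298_at, stood at 14.54 and 14.29 with VEGF-C siRNA, at 13.94 and 14.51 with NRP-2 siRNA and at 14.69 and 14.89 with scrambled siRNA. All 4 siRNA arrays were below both scrambled arrays, and the 2 siRNA groups overlapped. The difference from scrambled siRNA was -0.38 (SE 0.23, unadjusted p = 0.151, limma adjusted p = 0.476) with VEGF-C siRNA and -0.57 (SE 0.23, unadjusted p = 0.0497, limma adjusted p = 0.376) with NRP-2 siRNA. These comparisons share the 2 scrambled arrays.

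The dimmer NRP1 probe sets were also below the scrambled arrays in both siRNA groups. Probe set 210510_s_at stood at 10.62 and 10.81 with VEGF-C siRNA, at 10.57 and 11.12 with NRP-2 siRNA and 11.30 and 11.79 with scrambled siRNA, differences of -0.83 and -0.70. Probe set 1561365_at stood at 4.16 and 4.37 with VEGF-C siRNA, at 3.87 and 4.76 with NRP-2 siRNA and 5.19 and 5.71 with scrambled siRNA, differences of -1.18 and -1.14. The fourth, 210615_at, lay between 2.86 and 2.87 in the siRNA groups and at 2.88 and 3.12 with scrambled siRNA. In the mean of its 3 probe sets past log2 4, NRP1 differed by -0.80 with each siRNA (limma adjusted p = 0.299 with VEGF-C siRNA, within 0.299 to 0.940 over all alternatives, and 0.303 with NRP-2 siRNA, within 0.109 to 0.812). Scrambled array 2, with the lowest G2/mitosis mean, had the highest NRP1 value in all 4 probe sets. With that mean as a covariate the difference of 212298_at was -0.15 under VEGF-C siRNA and -0.39 under NRP-2 siRNA, and without NRP-2 array 1 it was -0.28 with NRP-2 siRNA.

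NRP2 was lower with the siRNA against it and higher with VEGF-C siRNA. Its brightest probe set, 229225_at, stood at 5.51 and 6.01 with VEGF-C siRNA, at 3.41 and 2.81 with NRP-2 siRNA and at 4.77 and 4.92 with scrambled siRNA. None of the 3 groups overlapped. With NRP-2 siRNA the level averaged 3.11 ± 0.43 against 4.85 ± 0.11 with scrambled siRNA, a difference of -1.74 (SE 0.26, unadjusted p = 0.000868, limma adjusted p = 0.213). That mean is near the array medians, so the size of the loss of transcript is not known from these values.

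With VEGF-C siRNA NRP2 averaged 5.76 ± 0.35, a difference from scrambled siRNA of 0.91 (SE 0.26, unadjusted p = 0.0157, limma adjusted p = 0.257). The VEGF-C arrays took this probe set past the log2 4 minimum: its mean was 4.57 over the 6 arrays and 3.98 over the NRP-2 and scrambled arrays. With no filter on low values the limma adjusted p was 0.385, within 0.197 to 0.822 over all alternatives. Between the 2 siRNAs NRP2 differed by -2.65 (NRP-2 minus VEGF-C, SE 0.26, limma adjusted p = 0.098), rank 6 of 11131 by p. Adding the G2/mitosis mean to the fit left the difference at -1.74 for NRP-2 siRNA and 0.91 for VEGF-C siRNA against scrambled siRNA, and at -2.65 between the siRNAs. The SE rose to 0.34 for NRP-2 siRNA (limma adjusted p = 0.349) and to 0.38 for VEGF-C siRNA (unadjusted p = 0.0586, limma adjusted p = 0.671). This covariate was chosen after seeing the data, and a part of the cell cycle in the NRP2 level was not otherwise tested.

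The 11 NRP2 probe sets did not all show this. Probe set 222877_at, with a mean below log2 4, stood at 4.99 and 5.75 with VEGF-C siRNA, at 2.32 and 3.13 with NRP-2 siRNA and 3.28 and 3.21 with scrambled siRNA. Its difference from scrambled siRNA was 2.13 with VEGF-C siRNA (unadjusted p = 0.00552, limma adjusted p = 0.268 over 41091 probe sets) and -0.52 with NRP-2 siRNA, where the scrambled mean was 3.25.

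Probe sets 214632_at and 225566_at were high on 1 array alone, VEGF-C array 2. The first stood at 2.67 and 4.29 with VEGF-C siRNA and between 2.58 and 2.72 on the other 4 arrays, and the second at 2.35 and 3.46 with VEGF-C siRNA and between 2.22 and 2.33 on the others. VEGF-C array 2 was also the higher of its pair in 229225_at and 222877_at, and it had the lower VEGFC level. With 2 arrays this joint order of VEGFC and NRP2 is a description. The other 7 NRP2 probe sets stayed between 2.06 and 2.83, and in 210842_at both VEGF-C arrays (2.51 and 2.55) were above the rest (2.35 to 2.41).

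**Figure D2:**
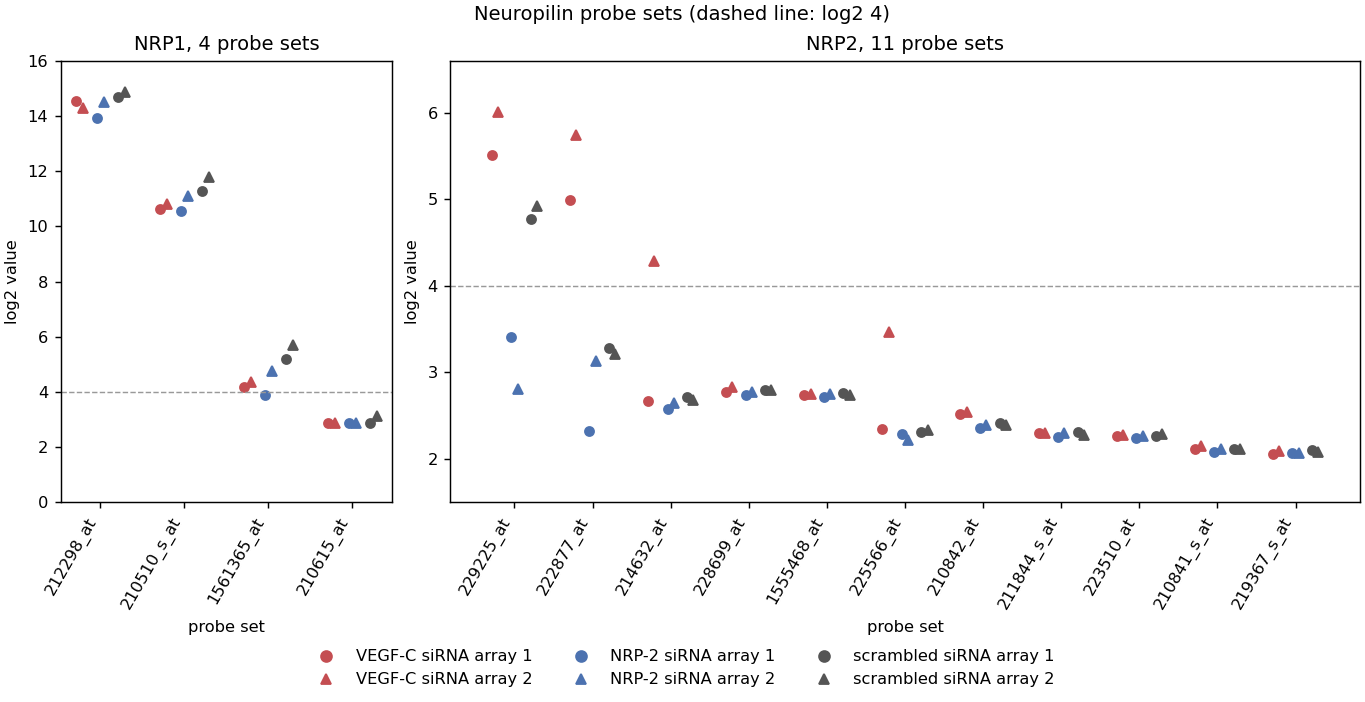
Log2 values (vertical axis) of the 4 NRP1 and the 11 NRP2 probe sets (horizontal axis) on the 6 arrays; colours are the siRNA groups, circles array 1, triangles array 2, and the dashed line is log2 4. NRP1 sits lower in the siRNA arrays than in the scrambled arrays in all 4 probe sets, by least in 210615_at, and the separation of the NRP2 groups is widest in 229225_at and 222877_at.

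Over the 8 genes tested, none was called in any comparison by limma's adjusted p. In all, 0 of 11131 genes were called (0% called in each of the 3 comparisons). At an unadjusted p under 0.05 the background was 1642 genes (14.8%) for VEGF-C siRNA, 1478 (13.3%) for NRP-2 siRNA and 2026 (18.2%) between the 2 siRNAs. With VEGF-C siRNA against scrambled siRNA, 1 of the 8 was higher at that level (NRP2, which passed the filter through the VEGF-C arrays, background 6.95%) and 1 lower (VEGFC, background 7.8%). With NRP-2 siRNA against scrambled siRNA, 0 were higher (background 6.43%) and 2 lower (NRP1 and NRP2, background 6.85%). Between NRP-2 and VEGF-C siRNA, 1 was higher (VEGFC, background 9.54%) and 2 lower (VEGFA and NRP2, background 8.66%).

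Groups that did not overlap were common among all genes. With VEGF-C siRNA 3 of the 8 were above both scrambled arrays (VEGFA, VEGFB and NRP2, background 26.8%) and 2 below (VEGFC and NRP1, background 26.6%). With NRP-2 siRNA 4 of the 8 were below both scrambled arrays (VEGFA, KDR, NRP1 and NRP2, background 24.4%) and 0 above (background 25.3%). The nearest KDR values were 5.089 with NRP-2 siRNA and 5.090 with scrambled siRNA. The nearest VEGFB values were 4.565 with VEGF-C siRNA and 4.560 with scrambled siRNA. Both genes therefore entered these counts with groups that were barely apart. Between NRP-2 and VEGF-C siRNA 1 was above (VEGFC, background 24.1%) and 2 below (VEGFA and NRP2, background 22.4%). NRP2 passed the filter through the VEGF-C arrays, where it is high. Its place in the 2 counts that involve VEGF-C siRNA is therefore no support. The median difference of the 8 was -0.01 under VEGF-C siRNA and -0.02 under NRP-2 siRNA, against -0.0044 and 0.012 over all genes.

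Of the 33 probe sets, 10 were above both scrambled arrays with VEGF-C siRNA (background 17.8% of 41091 probe sets) and 5 below (22.1%). With NRP-2 siRNA 2 were above (14.7%) and 19 below (28.5%). Between NRP-2 and VEGF-C siRNA 2 were above (13.9%) and 15 below (19.7%). These probe sets are not independent: 11 of the 33 belong to NRP2, and probe sets of 1 gene share the RNA of the arrays. Means were below log2 4 in 20 of the 33, where groups can be apart by hundredths, as in 210841_s_at of NRP2 (-0.02 with NRP-2 siRNA). The counts are therefore no result about the family. At limma's adjusted p, 28 probe sets (0.0681%) were called between the 2 siRNAs and 0 (0%) in the other comparisons, and none belonged to the 9 genes.

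**Figure D3:**
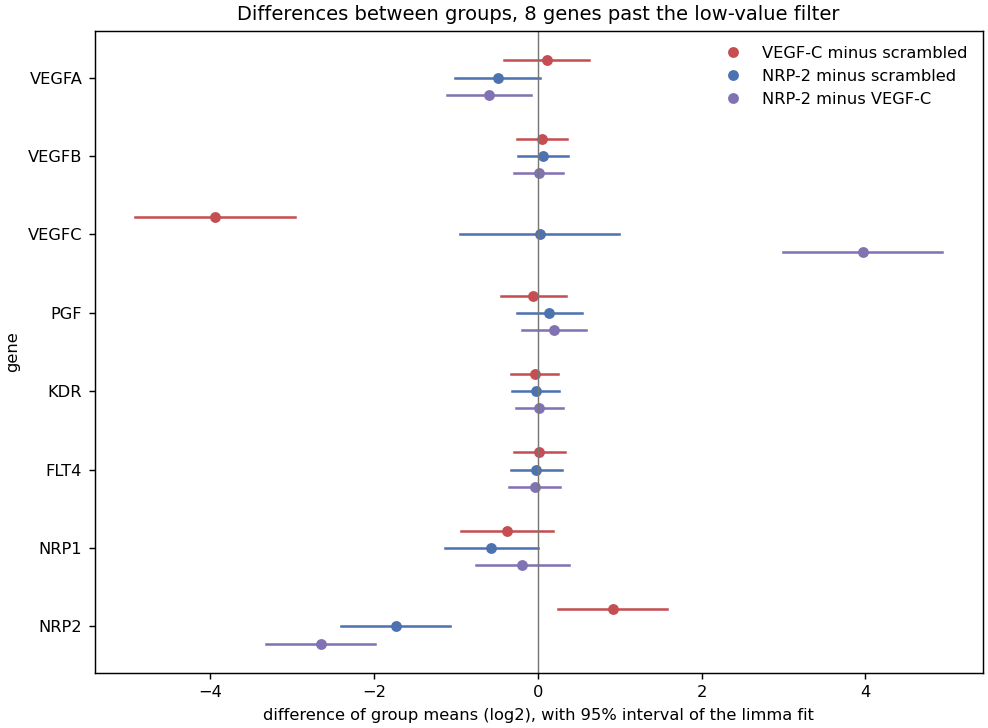
Difference of group means (horizontal axis, log2) for the 8 genes tested (vertical axis) in the 3 comparisons; points are differences and lines 95% intervals of the limma fit. The VEGFC difference is -3.95 under VEGF-C siRNA and 0.02 under NRP-2 siRNA, the NRP2 difference 0.91 and -1.74, and intervals of VEGFB, PGF, KDR and FLT4 cover 0 in every comparison.

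The rest of the pathway was described by lists of genes, in which limma called 0 members in any of the 3 comparisons. The ligand gene VEGFD had no probe set named here. Of 13 proteases and cofactors that process VEGF-C and VEGF-D, 8 were tested, and their median difference from scrambled siRNA was 0.15 for VEGF-C siRNA and -0.04 for NRP-2 siRNA. At an unadjusted p under 0.05, 1 was higher and 1 lower with VEGF-C siRNA (background 6.95% and 7.8%). With NRP-2 siRNA 0 were higher and 2 lower at that level (background 6.43% and 6.85%). ADAMTS3, the protease that with CCBE1 activates VEGF-C, stood at 7.40 and 6.76 with VEGF-C siRNA and at 7.61 and 7.76 with scrambled siRNA, a difference of -0.61 (limma adjusted p = 0.338). KLK3, a kallikrein that can cleave VEGF-C, differed by 0.48 with VEGF-C siRNA (limma adjusted p = 0.242). PCSK7, a proprotein convertase, differed by -0.56 with NRP-2 siRNA (limma adjusted p = 0.235), and CTSD, a lysosomal protease that also cleaves VEGF-C, by -0.42 (0.335).

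Class 3 semaphorins, most but not all of which bind neuropilins, and their plexin receptors had 9 of 12 genes tested. With VEGF-C siRNA 1 was higher and 2 lower at an unadjusted p under 0.05 (background 6.95% and 7.8%). With NRP-2 siRNA 0 were higher and 2 lower at that level (background 6.43% and 6.85%). SEMA3E stood at 4.80 and 5.08 with VEGF-C siRNA, at 6.07 and 6.67 with NRP-2 siRNA and 6.79 and 7.03 with scrambled siRNA, differences of -1.97 (limma adjusted p = 0.204) and -0.54 (0.405). SEMA3A, an NRP1 ligand, differed by -0.76 with NRP-2 siRNA (0.227) and by 0.06 with VEGF-C siRNA, SEMA3C, which can bind both neuropilins, by -0.46 and -0.84, and SEMA3F, the preferred semaphorin of NRP2, by 0.47 and -0.34.

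The 15 partners of VEGF receptors and neuropilins tested, of 21, had a median of 0.04 under VEGF-C siRNA and 0.0082 under NRP-2 siRNA. At an unadjusted p under 0.05, 0 were higher or lower with VEGF-C siRNA (background 6.95% and 7.8%) and 1 was higher with NRP-2 siRNA (background 6.43%). This was EFNB2, ephrin-B2, which promotes internalisation of VEGF receptors (0.57, limma adjusted p = 0.241). MYO6, the motor that carries vesicles with the neuropilin adaptor GIPC1, differed by -0.55 between NRP-2 and VEGF-C siRNA (0.244).

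Cytoplasmic signalling genes downstream of the receptors had 46 of 61 members tested, with medians of -0.0081 and -0.04. With VEGF-C siRNA 5 were higher and 4 lower at an unadjusted p under 0.05 (background 6.95% and 7.8%). With NRP-2 siRNA the counts were 2 and 2 (background 6.43% and 6.85%). PRKCA, the protein kinase C alpha gene, stood at 10.56 and 10.63 with VEGF-C siRNA, at 11.17 and 11.54 with NRP-2 siRNA and 11.53 and 11.91 with scrambled siRNA. Its difference was -1.12 with VEGF-C siRNA (limma adjusted p = 0.204) and -0.36 with NRP-2 siRNA (0.463). PIK3R3, a regulatory subunit of phosphoinositide 3-kinase, differed by -0.79 with VEGF-C siRNA (0.255), RCAN1, a calcineurin inhibitor induced by VEGF in endothelium, by 0.33 (0.314), and PPP3CB, a calcineurin subunit, by -0.42 with NRP-2 siRNA (0.273).

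Oxygen sensing genes and HIF factors, which set VEGFA transcription, had 15 of 17 members tested and a median of 0.07 under VEGF-C siRNA and 0.02 under NRP-2 siRNA. With VEGF-C siRNA 0 were higher and 2 lower at an unadjusted p under 0.05 (background 6.95% and 7.8%). With NRP-2 siRNA 1 was higher and 0 lower (background 6.43% and 6.85%). HIF1AN, the asparagine hydroxylase that inhibits HIF, stood at 8.44 and 8.26 with VEGF-C siRNA and 9.21 and 9.23 with scrambled siRNA (-0.87, limma adjusted p = 0.217). ARNT, the HIF partner subunit, differed by -0.70 (0.233). EGLN3, a HIF prolyl hydroxylase and itself a HIF target, stood at 7.48 and 6.51 with NRP-2 siRNA and 5.50 and 6.24 with scrambled siRNA (1.12, 0.343). VEGFA was lower in the same arrays (limma adjusted p = 0.388). Neither gene was called, and a link between them was not tested.

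All 6 RNA-binding proteins of VEGFA mRNA were tested, with medians of 0.03 and -0.06. At an unadjusted p under 0.05 in either direction there were 0 with either siRNA (background 14.8% and 13.3%). Of 32 other genes of vessel growth 16 were tested, with medians of 0.10 and -0.01. With VEGF-C siRNA 1 was higher and 1 lower at that level (background 6.95% and 7.8%). These were PDGFA (0.66) and PDGFB (-0.94), both ligands of platelet-derived growth factor receptors. With NRP-2 siRNA 1 was higher, EFNB2 again (background 6.43%). PDGFA, like VEGFA, was lower with NRP-2 than with VEGF-C siRNA (-0.88, limma adjusted p = 0.153), and angiogenin (ANG) was higher (0.78, 0.186).

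**Figure D4:**
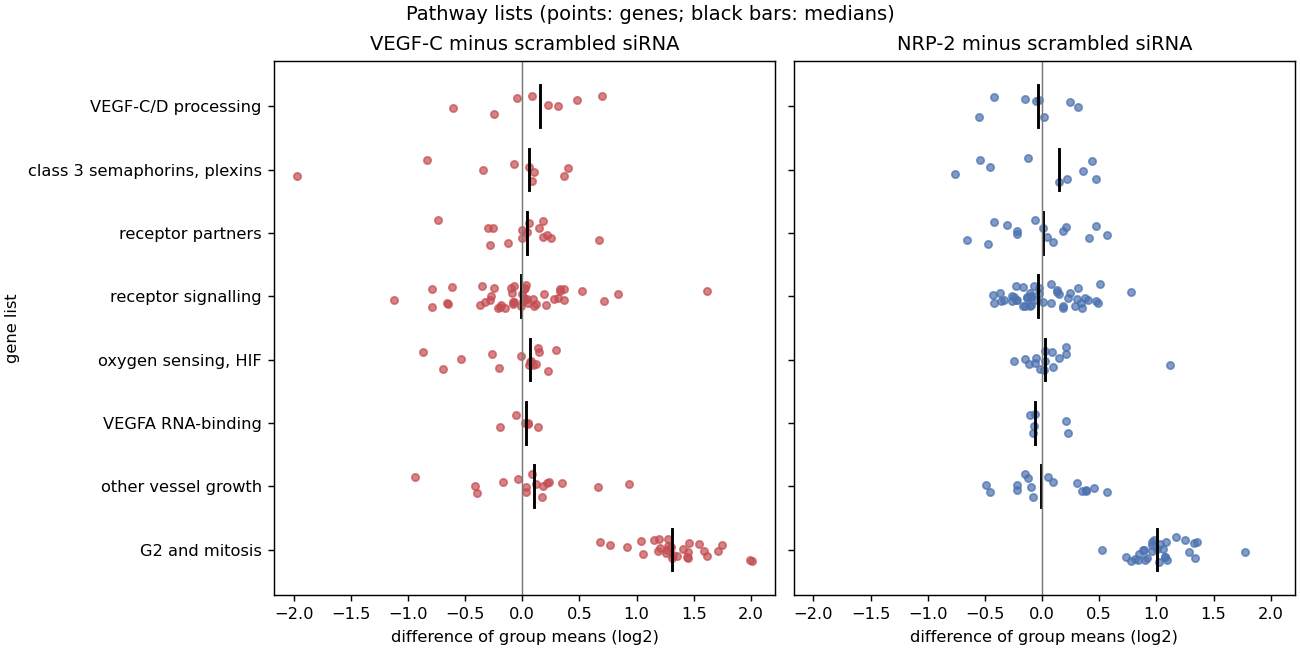
Difference of group means from scrambled siRNA (horizontal axis, log2) for the tested genes of 8 lists (vertical axis), with VEGF-C siRNA on the left and NRP-2 siRNA on the right; points are genes and black bars medians. The 7 lists around the VEGF system have medians between -0.06 and 0.15, and the G2 and mitosis genes have medians of 1.31 and 1.00.

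The genes whose 6 values were most like those of a member were taken by Pearson correlation from genes with a range of at least 1 on the log2 scale, 2408 of them (2407 for VEGFC and NRP2), and these are descriptions of 6 arrays that share their hybridisations. For VEGFC they were KLHL36 (r = 0.993), PACSIN1 (0.989) and CD82 (0.986), and 72 genes had r over 0.9. For NRP2 they were GTPBP8 (0.995), C1S (0.989) and MDK (0.986). For VEGFA they were ACSM3 (0.996), PSAT1 (0.992) and CBS (0.987), each lowest on NRP-2 array 1. For NRP1 they were CUX1 (0.987), AFG3L1P (0.984) and DNAJC3-DT (0.984). For PGF they were SLC14A1 (0.997), SERPINA1 (0.992) and SERPIND1 (0.985), each higher on array 2 than on array 1 of every group. VEGFB, KDR and FLT4 varied by only 0.14, 0.11 and 0.17, and the genes nearest to them were CXCR4 (0.942), MYLK4 (0.908) and VSIG1 (0.894) for VEGFB, LINC01296 (0.988), BICDL1 (0.939) and ACSS1 (0.938) for KDR, and HS3ST1 (0.992), GJA5 (0.916) and CPLX1 (0.915) for FLT4.

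The 6 differences named next kept their sign when 1 array was left out or the processing was changed. The groups of each pair did not overlap, so leaving out 1 array could not turn the sign. Changes of the variance model leave a difference as it was by construction. The kept sign is therefore no support in these settings, and the ranges describe size only. Over the alternatives run, VEGFC with VEGF-C siRNA lay between -4.54 and -3.35, NRP2 with NRP-2 siRNA between -2.04 and -1.44 and NRP2 with VEGF-C siRNA between 0.67 and 1.16. NRP1 lay between -0.80 and -0.15 with VEGF-C siRNA and between -0.85 and -0.28 with NRP-2 siRNA, and VEGFA with NRP-2 siRNA between -0.77 and -0.21. None of the 6 passed limma's adjusted threshold in any alternative.

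**Figure D5:**
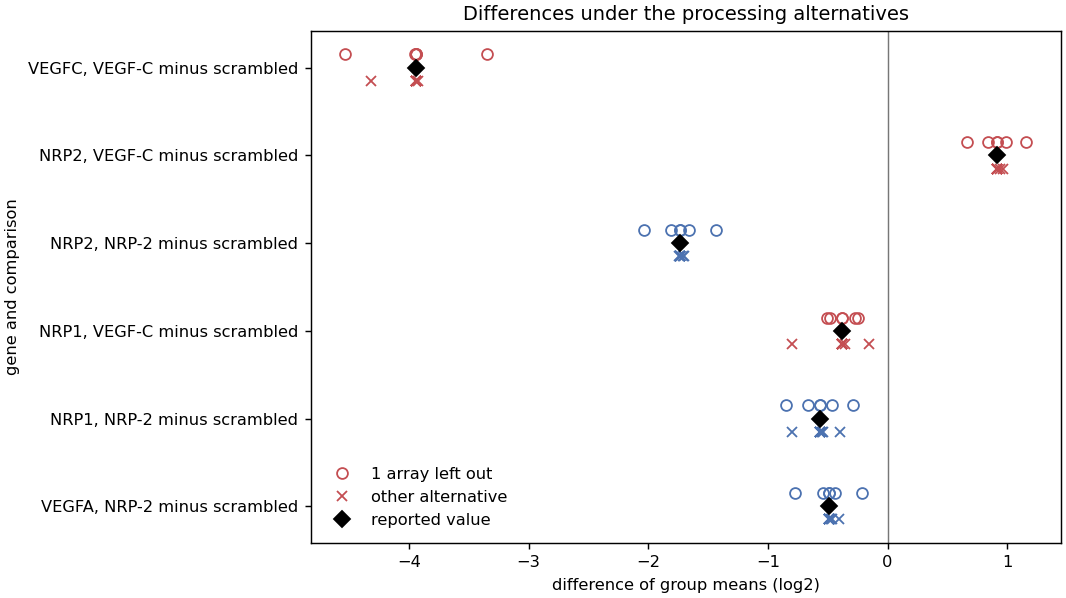
Difference of group means (horizontal axis, log2) for 6 gene and comparison pairs (vertical axis); diamonds are the reported values, circles the values with 1 array left out and crosses the other alternatives, in red for VEGF-C and blue for NRP-2 siRNA. Every point of a pair lies on the same side of 0, and the values nearest to 0 are -0.15 for NRP1 with VEGF-C siRNA and -0.21 for VEGFA with NRP-2 siRNA. For the circles this side was fixed in advance, because the groups of each pair did not overlap.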

How the data were processed

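Gene expression was measured with 6 Affymetrix HG-U133 Plus 2.0 arrays. The log2 values analysed here are those the authors deposited for each probe set, and the submitters' processing notes name Partek and GCRMA with no version. Scanner files and detection calls were not used. Precision is limited by the number of arrays. Groups and array numbers came from the labels.

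Probe sets with 1 gene in the platform annotation of 2016 (41091 without controls) were kept. For each gene the probe set with the highest mean was taken, provided this mean was at least log2 4 (11131 genes). Comparisons used two-sided moderated tests of limma 3.58.1 (lmFit, then eBayes; R 4.3.3), with all 6 arrays fitted together and 3 residual degrees of freedom, with Benjamini-Hochberg adjustment over all genes; all 41091 probe sets were fitted in the same way. The procedure was tested on simulated data in which all arrays varied independently. Deviations of same-numbered arrays here correlated at up to 0.58 (NRP-2 and scrambled siRNA). The simulation therefore does not check the p-values of these arrays.

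All 9 genes and their probe sets were to be named, with up to 4 genes per list by smallest p and the 3 most correlated genes. Members and the 14 lists (225 genes, 208 named here, 155 tested) were chosen with earlier results of these data known. Fibroblast and leukocyte markers had 2 of 6 and 1 of 4 named genes with means of at least log2 4 (COL1A1, COL3A1 and LYZ), and luminal prostate markers 2 of 4 (KLK3 and TMPRSS2). Alternatives changed the filter, probe set choice, scaling, variance model, samples and block.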

Additional observations from a re-analysis of the deposited data

How the results depend on the processing

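At the gene level the count of calls stayed at 0 in each comparison, except with no filter on low values, which gave 1 gene with VEGF-C siRNA and 1 between the 2 siRNAs. Among probe sets, calls with VEGF-C siRNA against scrambled siRNA were 0, and 1 with arrays shifted to equal medians and 2 with eBayes with trend; with NRP-2 siRNA they were 0, and 1 with trend. Between NRP-2 and VEGF-C siRNA 28 probe sets were called, none of them a member, 22 with quantile normalization, 8 with equal medians, 3 with trend, 0 with only the 2 groups compared, 0 with the replicate block and 0 to 0 with any 1 array left out. The labels do not say whether the array numbers pair samples, and each comparison has 2 numbers; array 1 had the higher G2/mitosis mean in every group, and deviations of same-numbered arrays correlated across genes at 0.12 (NRP-2 and VEGF-C siRNA), 0.11 (VEGF-C and scrambled) and 0.58 (NRP-2 and scrambled), and the replicate block left VEGFC with VEGF-C siRNA at -3.95 (limma adjusted p = 0.124, within 0.124 to 0.813 over all alternatives) and NRP2 with NRP-2 siRNA at -1.74 (0.146, within 0.0892 to 0.734).

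Of 348 member values under alternatives, 322 kept their direction and side of the threshold and 26 changed sign, in differences whose 95% intervals cover 0; the cause was not tested. With the mean of 29 G2/mitosis genes as a covariate, chosen after seeing the data, signs turned for PGF (0.16) and KDR (0.0019) with VEGF-C siRNA, VEGFC (-0.26), KDR (0.0089) and FLT4 (0.045) with NRP-2 siRNA, and VEGFB (-0.0057) between the siRNAs. With quantile normalization they turned for KDR (0.0086) with VEGF-C siRNA, FLT4 (0.0052) with NRP-2 siRNA, and VEGFB (-0.018) and KDR (-0.029) between the siRNAs, and with equal medians for KDR (0.0015) and FLT4 (0.0063) with NRP-2 siRNA. With 1 array left out, values ran from -0.15 to 0.043 for PGF, -0.089 to 0.0069 for KDR and -0.068 to 0.10 for FLT4 with VEGF-C siRNA. With NRP-2 siRNA they ran from -0.0076 to 0.13 for VEGFB, -0.14 to 0.18 for VEGFC and -0.050 to 0.012 for FLT4, and between the siRNAs from -0.058 to 0.080 for VEGFB, -0.031 to 0.065 for KDR, -0.12 to 0.049 for FLT4 and -0.47 to 0.092 for NRP1. A group left with 1 array is assumed to vary like the others. A minimum of log2 6 gave no value for VEGFB, KDR, FLT4 and NRP2, and 20 of the 33 probe sets had means below log2 4, where low signal limits what can be measured.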
